A study of Mus musculus with 16 samples.

Results

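The genes described here encode the semaphorins, ephrins and Slits, which are guidance cues, and the plexins, Eph receptors and Robos, which receive them. They were chosen by symbol from the protein-coding genes of the deposited table. The only measured value in the rule was a mean of 10 or more counts over the 16 libraries. The choice of these families was made with earlier results of these data known. The rule gave 56 genes of the 21804 in the table: 20 semaphorins, 13 Eph receptors, 9 plexins, 7 ephrins, 4 Robos and 3 Slits. Epha1, with a mean of 10.2 counts, lay just inside the limit, and Efna4, with 5.51, was the 1 gene of 57 with a matching symbol that lay outside it.

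The libraries came from the brains of 8 C57BL/6 mice aged 4 months, 4 with a single Pdgfb ret allele (ret/wt, the controls) and 4 with both (ret/ret). All animals, controls included, therefore carried at least 1 ret allele, whose PDGF-B protein lacks the stretch that retains this growth factor at the vessel wall. Each animal gave 1 cortex and 1 thalamus library, which made 4 groups of n = 4, a cortex and a thalamus group for each genotype. Per the labels, vessel-associated calcifications form in the ret/ret thalamus and were cut out of it under a fluorescence stereomicroscope, while the controls gave tissue of the same region. In the thalamus, genotype and dissection cannot be told apart.

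Guidance cues steer growing axons by attraction or repulsion and, in the adult brain, remain in use at synapses, in blood vessels and in myelinating glia. Semaphorins signal through plexins, some of the secreted ones with a neuropilin as co-receptor. Ephrins are held on the cell surface and signal to Eph receptor tyrosine kinases on the neighbouring cell, and Slits are secreted proteins that act through Robo receptors. Cortical layers and thalamic nuclei are each known for their own sets of these genes.

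Total counts ran from 13415391 to 29135064 per library, and levels are given as CPM, counts scaled to a common library total with TMM factors. At these totals, 3 counts corresponded to 0.11 to 0.235 CPM, a floor that covers counting error only. The regions matched their labels: of 8 cortical projection neuron markers, 7 fell in thalamus in each genotype, and of the thalamus neuron markers 6 of 7 tested rose in ret/wt and 4 of 8 in ret/ret. Markers of cerebellar granule cells were high in 2 cortex libraries, ret/ret replicate 2 and ret/wt replicate 3, where Cbln3 stood at 1047 and 416 CPM against at most 2.41 in the other cortex libraries. The same 2 animals were the only ones with more than traces of Y-linked reads in either region. Their thalamus libraries stood apart too: the thalamus neuron markers summed to 2946 CPM in ret/wt replicate 3 and 3132 in ret/ret replicate 2. In the other thalamus libraries these sums ran from 356 to 1048 CPM. Ret/ret thalamus replicate 4 held the cerebellar markers Fat2 at 41.7 and Cbln3 at 9.61 CPM, against at most 0.842 and 2.04 in the other thalamus libraries. The cerebellar list as a whole summed to 128 CPM there, within the 47.5 to 163 CPM of ret/ret thalamus. A choroid plexus list summed to 1127 CPM in ret/wt cortex replicate 4 against 8.66 to 66.3 CPM in the other cortex libraries. The tissue was bulk, so fewer cells of a type and less RNA per cell cannot be told apart.

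Of the 6 genes that differed between the regions in both genotypes, 5 are shown here by the promoter just before their transcription start, because the lower ones and a higher one can then be set side by side. The gene not shown is Sema6a, so Plxnb3 is the only higher one here. Each line holds the 250 bases before the RefSeq start on GRCm38.p6, 5′ to 3′ on the gene's strand. Capitals mark the GC box GGGCGG, searched on both strands, which is a general promoter element bound by Sp-family factors.
Efnb2: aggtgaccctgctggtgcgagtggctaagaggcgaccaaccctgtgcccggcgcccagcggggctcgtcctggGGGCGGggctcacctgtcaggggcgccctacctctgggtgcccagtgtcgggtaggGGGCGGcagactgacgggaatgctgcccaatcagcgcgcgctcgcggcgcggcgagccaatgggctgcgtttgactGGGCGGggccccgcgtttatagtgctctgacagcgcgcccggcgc
Plxna2: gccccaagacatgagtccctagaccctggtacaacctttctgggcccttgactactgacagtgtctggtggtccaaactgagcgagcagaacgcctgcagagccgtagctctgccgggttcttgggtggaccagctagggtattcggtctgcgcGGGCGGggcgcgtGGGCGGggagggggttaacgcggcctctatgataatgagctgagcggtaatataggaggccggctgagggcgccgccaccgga
Plxnd1: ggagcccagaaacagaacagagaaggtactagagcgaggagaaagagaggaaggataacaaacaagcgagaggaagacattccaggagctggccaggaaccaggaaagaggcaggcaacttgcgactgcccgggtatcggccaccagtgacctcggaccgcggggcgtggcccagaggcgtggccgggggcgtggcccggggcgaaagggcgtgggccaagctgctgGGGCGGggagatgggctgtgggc
Sema3a: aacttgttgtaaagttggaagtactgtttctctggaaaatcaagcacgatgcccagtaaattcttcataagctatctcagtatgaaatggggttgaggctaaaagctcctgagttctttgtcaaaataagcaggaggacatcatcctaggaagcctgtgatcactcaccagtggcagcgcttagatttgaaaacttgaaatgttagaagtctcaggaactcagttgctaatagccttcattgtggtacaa
Plxnb3: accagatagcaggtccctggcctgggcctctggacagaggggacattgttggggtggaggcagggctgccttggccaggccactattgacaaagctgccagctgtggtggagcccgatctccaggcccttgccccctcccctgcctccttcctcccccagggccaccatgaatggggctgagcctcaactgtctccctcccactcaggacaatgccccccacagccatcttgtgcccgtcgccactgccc
These windows lie at chr8:8661243-8661492 on the minus strand (Efnb2), chr1:194619579-194619828 on the plus strand (Plxna2) and chr6:115995006-115995255 on the minus strand (Plxnd1). The other two are at chr5:13396534-13396783 on the plus strand (Sema3a) and chrX:73756853-73757102 on the plus strand (Plxnb3). The Sema3a and Plxna2 windows lie inside the spans that the GENCODE annotation gives these genes, and the end of the Plxnb3 window runs past its GENCODE start, so these windows stand before the RefSeq start and not before the outermost one. Efnb2 held 3 GC boxes, Plxna2 held 2, Plxnd1 held 1, and neither Sema3a nor Plxnb3 held any in this window. The Efnb2 window was 72% G and C with 27 CpG dinucleotides, and the Sema3a window 40.8% with 2. Of the 56 genes, 49 matched the RefSeq promoter table, and 38 of these had a GC box in at least 1 of their windows. The letters occurred in 32.7% of all 32841 windows, a share per window that cannot be set against the count per gene. G and C made up a median of 64% of the bases in the 65 member windows against 52.4% in all.

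Levels between genes were compared per kilobase of merged exon length, averaged over the 16 libraries. In these units Sema7a, a membrane-anchored semaphorin, had the highest level of all members, at 48.5 CPM per kb. The highest of the other families were Efnb3 at 34.3, the kinase-dead receptor Ephb6 at 20.8, Plxna1 at 13.6, Slit1 at 8.90 and Robo2 at 5.32 CPM per kb. Epha1 was lowest, at 0.132 CPM per kb. Sema7a varied widely within groups: control animals had 198 ± 106 CPM in cortex and 142 ± 56.4 in thalamus (SD, n = 4 each). Its values in ret/ret were 182 ± 81.5 CPM in cortex and 117 ± 49.6 in thalamus (SD, n = 4 each), so the 4 group means did not differ beyond their spread. For Plxna1, a receptor of class 3 and class 6 semaphorins, the group means lay between 94.4 and 159 CPM.

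The first comparison asked how thalamus differed from cortex in the control animals. In ret/wt, 13 of the 55 members tested passed an adjusted p of 0.05 (quasi-likelihood test of edgeR, Benjamini-Hochberg adjustment over all genes), which is 23.6%, against 12.6% of all genes tested. Of these, 3 rose in thalamus (Epha8, Plxnb3, Sema6a) and 10 fell (Efnb1, Efnb2, Ephb3, Plxna2, Plxnc1, Plxnd1, Robo2, Sema3a, Sema3e, Slit3), where 5.44% of all genes rose and 7.12% fell. The cortex and thalamus values of 16 members did not overlap, against 19.9% of all genes. The median log2 fold change, thalamus over cortex, was −0.36 over the members and 0.03 over all genes, and the median absolute value 0.69 against 0.39. By family, 5 of 7 ephrins, all 3 Slits and 8 of 12 Eph receptors had negative values, while 11 of 20 semaphorins had positive ones.

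The same comparison in ret/ret animals set calcified thalamus against cortex. There 10 of 55 members (18.2%) passed the same test, against 9.5% of all genes. The 5 that rose in thalamus were Efnb3, Plxnb3, Robo1, Sema4d and Sema6a, and the 5 that fell were Efnb2, Plxna2, Plxnd1, Robo3 and Sema3a, where 4.1% of all genes rose and 5.4% fell. Values of 12 members did not overlap between the regions, against 17.5% of all genes. The median log2 fold change was −0.13 over the members and −0.02 over all genes. Without ret/ret cortex replicate 2, which held the cerebellar RNA, 17 members were called against 13.4% of all genes. Without both libraries of that animal, cortex and thalamus, 20 members were called against 17.4%. The latter fit kept all 10 calls and added Epha4, Epha5, Epha6, Epha7, Ephb1, Plxna4, Plxnc1, Robo2, Sema6d and Slit3. In ret/wt, leaving out both libraries of replicate 3, whose cortex held cerebellar RNA, gave 11 members against 9.88% of all genes.

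The genotypes shared no library or animal in these comparisons. Plxna2, Plxnd1, Efnb2, Sema3a, Plxnb3 and Sema6a passed in both, which is 46.2% of the ret/wt calls and 60% of the ret/ret calls. The other 11 called members had the same sign in the genotype where they missed the threshold, and 45 of the 55 members had the same sign in both. Across the 55 members the fold changes of the 2 genotypes had a Pearson r of 0.872 and a Spearman correlation of 0.854, given as a description, since the points share the libraries of each genotype.

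**Figure D1:**
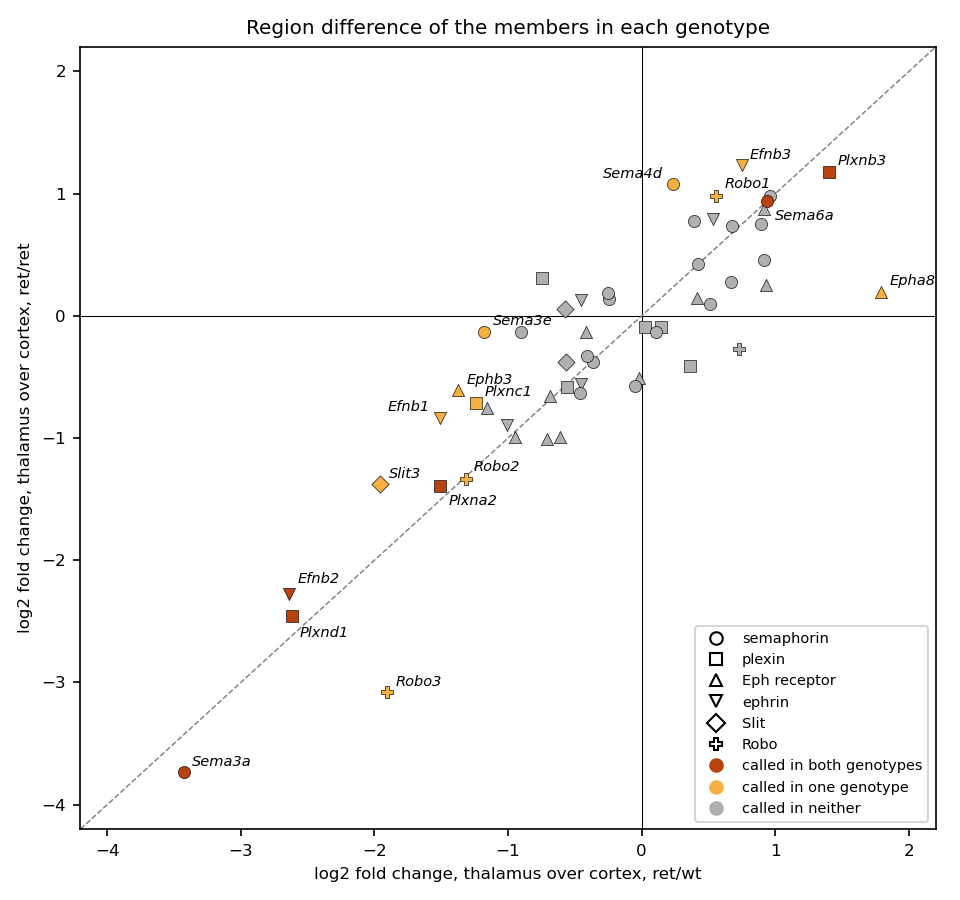
Log2 fold change of each member, thalamus over cortex, in ret/wt (horizontal axis) and ret/ret (vertical axis), 4 libraries per group; symbols mark the family and colours whether the member was called in both genotypes, in 1 or in neither. Sema3a, Efnb2, Plxnd1 and Plxna2 lie at the lower left on or near the dashed line of equal change, and Epha8 and Sema3e lie off it.

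Among the members that were lower in thalamus in both genotypes, Plxnd1 and Plxna2 are receptors. Plxnd1, the receptor of Sema3e in axons and blood vessels, stood at 77.6, 155, 98.5 and 84.0 CPM in ret/wt cortex replicates 1 to 4 and at 8.98, 13.3, 18.5 and 26.0 in ret/wt thalamus. In ret/ret it was measured at 139.6, 70.9, 81.6 and 102 CPM in cortex and at 17.5, 17.6, 15.3 and 21.3 in thalamus. Every thalamus library lay below every cortex library in both genotypes. The log2 fold change was −2.62 ± 0.36 (SE) in ret/wt with an adjusted p of 0.00139 and −2.45 ± 0.24 in ret/ret with an adjusted p of 0.00142 (edgeR's quasi-likelihood test, Benjamini-Hochberg adjustment).

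Plxna2, a receptor of class 6 semaphorins such as Sema6a, was measured at 229.7, 208, 197 and 204 CPM in ret/wt cortex and at 79.6, 84.1, 80.1 and 49.9 in ret/wt thalamus. Ret/ret cortex libraries held 156, 96.8, 222 and 164 CPM and ret/ret thalamus libraries 46.4, 64.9, 57.8 and 73.1. The regions did not overlap in either genotype. Plxna2 fell by 1.51 ± 0.20 on the log2 scale in ret/wt (adjusted p = 0.00104) and by 1.39 ± 0.25 in ret/ret (adjusted p = 0.0113) by edgeR (quasi-likelihood test, Benjamini-Hochberg adjustment).

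Of the ligands, Efnb2, the transmembrane ephrin known for arterial endothelium and for synapses, had 62.6, 68.7, 37.4 and 106 CPM in ret/wt cortex and 13.9, 14.1, 8.55 and 7.11 in ret/wt thalamus. Its ret/ret values were 91.4, 42.9, 52.9 and 48.1 CPM in cortex and 14.6, 7.64, 12.2 and 14.1 in thalamus. Again the lowest cortex library was above the highest thalamus library in each genotype. Efnb2 fell by 2.64 ± 0.35 on the log2 scale in ret/wt (adjusted p = 0.0011) and by 2.27 ± 0.30 in ret/ret (adjusted p = 0.00413) by edgeR (quasi-likelihood test, Benjamini-Hochberg adjustment).

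Sema3a, a secreted repellent that acts through neuropilin-1 and class A plexins, was at 37.4, 39.9, 34.2 and 13.2 CPM in ret/wt cortex and at 4.97, 2.83, 3.05 and 0.581 in ret/wt thalamus. In ret/ret, cortex held 28.1, 30.1, 52.7 and 22.4 CPM and thalamus 2.48, 0.268, 0.63 and 6.64. No thalamus value reached a cortex value of the same genotype, and the lowest library of all, ret/ret thalamus replicate 2, held 5.57 counts. Sema3a had the largest decrease of any member in both genotypes, by 3.43 ± 0.55 in ret/wt (adjusted p = 0.0029) and by 3.73 ± 0.82 in ret/ret (adjusted p = 0.0233) by edgeR (quasi-likelihood test, Benjamini-Hochberg adjustment). In ret/ret the call was lost without thalamus replicate 1, without thalamus replicate 3 and without cortex replicate 3 (adjusted p = 0.0696, 0.0595 and 0.0693 by the same edgeR test).

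The cortical projection neuron list moved with these members: its summed level was 1218 to 1977 CPM in ret/wt cortex and 68.1 to 333 in ret/wt thalamus, and 824 to 2636 and 87.0 to 335 in ret/ret. Its part in the lower thalamus values was not tested.

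Plxnb3 and Sema6a were higher in thalamus in both genotypes. Plxnb3, a plexin known from oligodendrocytes and a receptor of Sema5a, was measured at 14.5, 15.6, 15.6 and 9.28 CPM in ret/wt cortex and at 46.2, 41.2, 30.0 and 27.3 in ret/wt thalamus. Ret/ret animals had 9.44, 15.5, 11.3 and 13.2 CPM in cortex and 22.5, 26.5, 31.6 and 31.3 in thalamus. All thalamus libraries lay above all cortex libraries. The log2 fold change was 1.40 ± 0.25 in ret/wt (adjusted p = 0.00477) and 1.18 ± 0.21 in ret/ret (adjusted p = 0.00987) by edgeR (quasi-likelihood test, Benjamini-Hochberg adjustment).

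Sema6a, a transmembrane semaphorin that binds Plxna2 and Plxna4, was at 26.6, 38.9, 33.4 and 25.9 CPM in ret/wt cortex and at 71.5, 62.9, 67.3 and 36.4 in ret/wt thalamus. In ret/ret it stood at 36.8, 25.1, 30.4 and 32.0 CPM in cortex and at 48.4, 71.1, 54.6 and 63.7 in thalamus. The regions were separate in ret/ret but overlapped in ret/wt, where thalamus replicate 4 fell within the range of cortex. Both fold changes were 0.94 on the log2 scale, with an SE of 0.24 and an adjusted p of 0.0289 in ret/wt and an SE of 0.18 and an adjusted p of 0.0143 in ret/ret (edgeR's quasi-likelihood test, Benjamini-Hochberg adjustment). The ret/wt call was lost when any ret/wt library but cortex replicate 2 or thalamus replicate 4 was left out, with adjusted p between 0.0519 and 0.0931 in the 6 edgeR fits that lost it.

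The oligodendrocyte list moved in the same direction: all 6 of its genes rose in thalamus in both genotypes, with medians of 1.88 and 1.76. Its summed level was 1770 to 4419 CPM in ret/wt cortex and 9446 to 11470 in ret/wt thalamus, and 2399 to 4401 and 10509 to 16358 in ret/ret. The part of this list in the values of Plxnb3, Sema6a, Sema4d and Efnb3 was not tested.

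**Figure D2:**
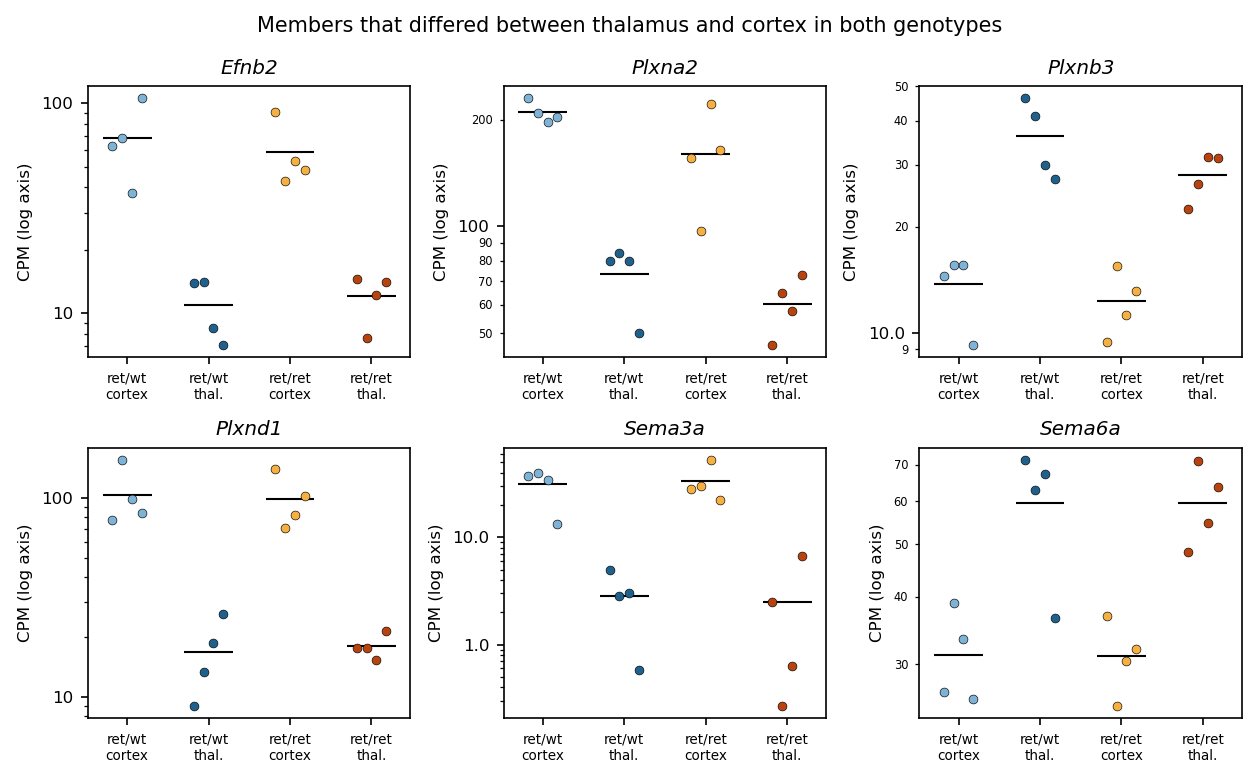
CPM of the 6 members called in both genotypes, on a log axis; each point is 1 of the 4 libraries of a group and each horizontal line the group mean. Efnb2, Plxna2, Plxnd1 and Sema3a are lower in both thalamus groups, with Sema3a reaching 0.268 CPM, and Plxnb3 and Sema6a are higher.

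The 7 members called in ret/wt alone were the cues Slit3, Efnb1 and Sema3e and the receptors Robo2, Ephb3, Plxnc1 and Epha8. Slit3, a secreted Slit, was measured at 37.3, 37.9, 18.3 and 89.2 CPM in ret/wt cortex and at 9.84, 14.3, 14.6 and 7.95 in ret/wt thalamus, without overlap. Its log2 fold change was −1.96 in ret/wt (adjusted p = 0.0146) and −1.38 in ret/ret (adjusted p = 0.0943) by edgeR (quasi-likelihood test, Benjamini-Hochberg adjustment). With the animal as a block, the ret/wt value was −1.76 and the adjusted p of the edgeR test 0.0654.

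Robo2, a Slit receptor, had 145, 147, 122 and 142 CPM in ret/wt cortex and 85.4, 67.7, 36.5 and 32.6 in ret/wt thalamus, also without overlap. In ret/ret it was at 157, 54.5, 174 and 92.5 CPM in cortex and at 41.3, 31.0, 68.2 and 48.3 in thalamus, where cortex replicate 2 reached into the thalamus range. The log2 fold changes were nearly equal, −1.32 in ret/wt (adjusted p = 0.0151) and −1.34 in ret/ret (adjusted p = 0.0529), by edgeR (quasi-likelihood test, Benjamini-Hochberg adjustment). The ret/ret value passed with the animal as a block (adjusted p = 0.0288) and without ret/ret cortex replicate 2 (adjusted p = 0.0122) in the same edgeR test. Without both libraries of ret/wt replicate 3, whose cortex held cerebellar reads, the ret/wt value no longer passed that edgeR test (adjusted p = 0.0518).

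Efnb1, a transmembrane ephrin, fell by 1.51 in ret/wt (adjusted p = 0.00763) and had a value of −0.83 in ret/ret (adjusted p = 0.211) by edgeR (quasi-likelihood test, Benjamini-Hochberg adjustment). It was at 10.5, 15.6, 17.9 and 20.4 CPM in ret/wt cortex and at 7.47, 5.88, 5.38 and 3.75 in ret/wt thalamus. Ephb3, a receptor of the ephrin-Bs, fell by 1.37 in ret/wt (adjusted p = 0.0205) and was −0.61 in ret/ret (adjusted p = 0.366) by the same edgeR test. The Ephb3 call in ret/wt was lost without cortex replicate 1, cortex replicate 2 or thalamus replicate 2 (adjusted p = 0.0656, 0.0585 and 0.0601 in edgeR). Plxnc1, the receptor of Sema7a, was at 75.1, 95.1, 82.4 and 154 CPM in ret/wt cortex and at 47.2, 50.9, 40.5 and 32.4 in thalamus. It fell by 1.24 in ret/wt (adjusted p = 0.0102), and its value of −0.71 in ret/ret (adjusted p = 0.159) became −0.89 without ret/ret cortex replicate 2 (adjusted p = 0.042) in the edgeR test.

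Sema3e, the secreted ligand of Plxnd1, was at 35.9, 24.1, 39.5 and 47.6 CPM in ret/wt cortex and at 21.6, 19.7, 15.1 and 8.33 in ret/wt thalamus. In ret/ret thalamus it was at 7.58, 10.9, 19.9 and 82.1 CPM against 12.5, 24.3, 52.8 and 42.3 in cortex. Replicate 4 of ret/ret thalamus was thus above every other library of the series, and the other 3 thalamus libraries lay in the range of ret/wt thalamus or just below it. Replicate 4 also held the cerebellar gene Fat2 at 41.7 CPM, and the part of cerebellar tissue in its Sema3e value was not tested. Sema3e fell by 1.18 ± 0.31 in ret/wt (adjusted p = 0.031) and had a value of −0.13 ± 0.73 in ret/ret (adjusted p = 0.931) by edgeR (quasi-likelihood test, Benjamini-Hochberg adjustment). Without ret/ret thalamus replicate 4 the latter was −1.36. The ret/wt call was lost in 5 of the 8 fits that left out 1 library (cortex replicates 1, 3 and 4, thalamus replicates 2 and 3), with adjusted p between 0.0564 and 0.0898 in edgeR, and with the animal as a block (0.0853). The interaction, which tests the difference between the genotypes, was 1.05 ± 0.86 with an unadjusted p of 0.238 by the edgeR test over all 16 libraries.

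Epha8, an ephrin-A receptor, was at 6.99, 4.90, 10.5 and 2.61 CPM in ret/wt cortex and at 20.8, 20.4, 25.8 and 18.8 in ret/wt thalamus. Ret/ret cortex held 2.83, 56.1, 6.46 and 7.88 CPM and ret/ret thalamus 23.5, 36.2, 16.8 and 7.65. The value of 56.1 CPM in ret/ret cortex replicate 2 was the highest of the series and came from the library with the most cerebellar RNA. Epha8 rose by 1.79 ± 0.37 in ret/wt (adjusted p = 0.0109) and was 0.20 ± 0.84 in ret/ret (adjusted p = 0.908), where it became 1.90 ± 0.54 without that library (adjusted p = 0.0505), by edgeR (quasi-likelihood test, Benjamini-Hochberg adjustment). The fit of all 16 libraries gave the ret/wt difference an adjusted p of 0.117 in edgeR. Sema4g and Sema6d, singled out after their values were seen, were also highest among cortex libraries in ret/ret replicate 2, at 73.2 and 171 CPM against at most 32.9 and 108 in the other cortex libraries. The part of cerebellar tissue in these values was not tested.

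**Figure D3:**
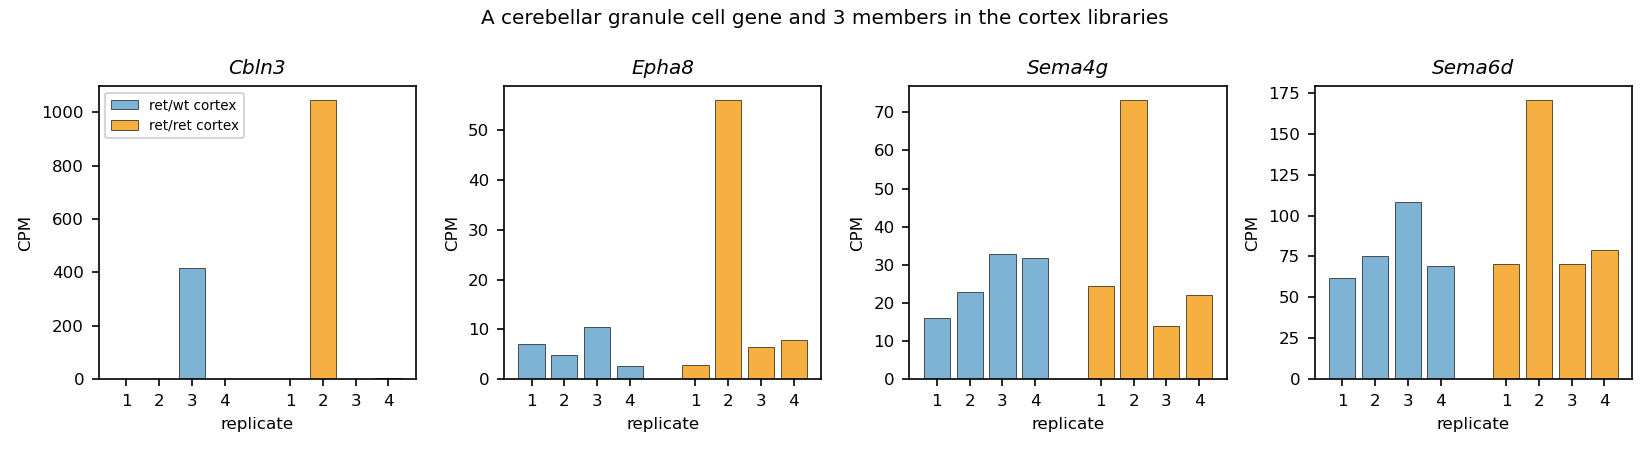
CPM of the cerebellar granule cell gene Cbln3 and of Epha8, Sema4g and Sema6d in the 8 cortex libraries; each bar is 1 library, labelled by replicate and coloured by genotype. Ret/ret cortex replicate 2 has the tallest bar in all 4 panels (1047, 56.1, 73.2 and 171 CPM).

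Members called in ret/ret alone were Efnb3, Robo1, Sema4d and Robo3. In ret/wt, replicate 4 had the opposite sign to replicates 1 to 3 for each of these genes. Its log2 difference between the regions, with 1 added to each CPM, was −0.08, −1.32, −1.23 and 0.66 in that order. No fit left out both libraries of that animal. Efnb3, known as a midline repellent for Epha4-bearing axons, was measured at 73.3, 53.1, 48.8 and 76.0 CPM in ret/ret cortex and at 156, 136, 138 and 158 in ret/ret thalamus. Ret/wt thalamus was similar, at 138, 131, 153 and 143 CPM, and ret/wt cortex was at 44.7, 82.3, 61.2 and 152. It was the single ret/wt cortex library at 152 CPM, replicate 4, that overlapped thalamus, and this was also the library with the choroid plexus genes. Efnb3 rose by 1.23 ± 0.18 in ret/ret (adjusted p = 0.00534) and had a value of 0.75 ± 0.33 in ret/wt (adjusted p = 0.172), or 1.19 without that library (adjusted p = 0.0122), by edgeR (quasi-likelihood test, Benjamini-Hochberg adjustment).

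Sema4d, a ligand of Plxnb1 that oligodendrocytes are known to make, was at 38.6, 30.4, 35.4 and 36.1 CPM in ret/ret cortex and at 68.0, 57.7, 84.5 and 85.8 in ret/ret thalamus. In ret/wt it stood at 45.8, 37.1, 31.1 and 53.3 CPM in cortex and at 64.7, 61.3, 48.1 and 22.2 in thalamus. Ret/ret thalamus lay wholly above ret/ret cortex, whereas the ret/wt regions overlapped through thalamus replicates 3 and 4. Within animals, the log2 difference between the regions was 0.49, 0.71 and 0.61 in ret/wt replicates 1 to 3 and −1.23 in replicate 4. The log2 fold change was 1.08 ± 0.17 in ret/ret (adjusted p = 0.00675) and 0.23 ± 0.31 in ret/wt (adjusted p = 0.678) by edgeR (quasi-likelihood test, Benjamini-Hochberg adjustment). The ret/wt value was 0.47 without thalamus replicate 4 and ran from 0.08 to 0.47 over the alternatives, none of which called it.

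Robo1, a Slit receptor, was at 33.8, 18.1, 34.1 and 34.1 CPM in ret/ret cortex and at 52.4, 72.6, 67.2 and 43.8 in ret/ret thalamus, without overlap. Ret/wt thalamus held 91.7, 85.7, 72.7 and 27.6 CPM, and its replicate 4 lay below all ret/wt cortex libraries. Robo1 rose by 0.98 ± 0.25 in ret/ret (adjusted p = 0.0389) and had a value of 0.56 ± 0.36 in ret/wt (adjusted p = 0.348) by edgeR (quasi-likelihood test, Benjamini-Hochberg adjustment). The ret/ret call was lost when any library but cortex replicate 2 or thalamus replicate 4 was left out (adjusted p between 0.0545 and 0.0936 in edgeR) and with the animal as a block (0.0855). Robo1 and Robo2 are neighbours on chromosome 16 and had opposite signs between the regions in both genotypes.

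Robo3, the divergent Robo of commissural axons, was at 6.68, 4.45, 9.38 and 6.06 CPM in ret/ret cortex and at 1.06, 0.134, 1.21 and 0.704 in ret/ret thalamus. Its ret/wt values were 17.4, 11.4, 3.47 and 3.26 CPM in cortex and 1.34, 2.16, 0.0598 and 5.75 in thalamus, and here the regions overlapped. The value of 0.0598 CPM lay below the floor of 3 counts in its library (0.179 CPM), and 0.134 CPM lay at it. Robo3 fell by 3.08 ± 0.58 in ret/ret (adjusted p = 0.0128) and was −1.91 ± 0.90 in ret/wt (adjusted p = 0.203) by edgeR (quasi-likelihood test, Benjamini-Hochberg adjustment). Robo3 and Robo4 lie 0.553 kb apart on opposite strands of chromosome 9.

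**Figure D4:**
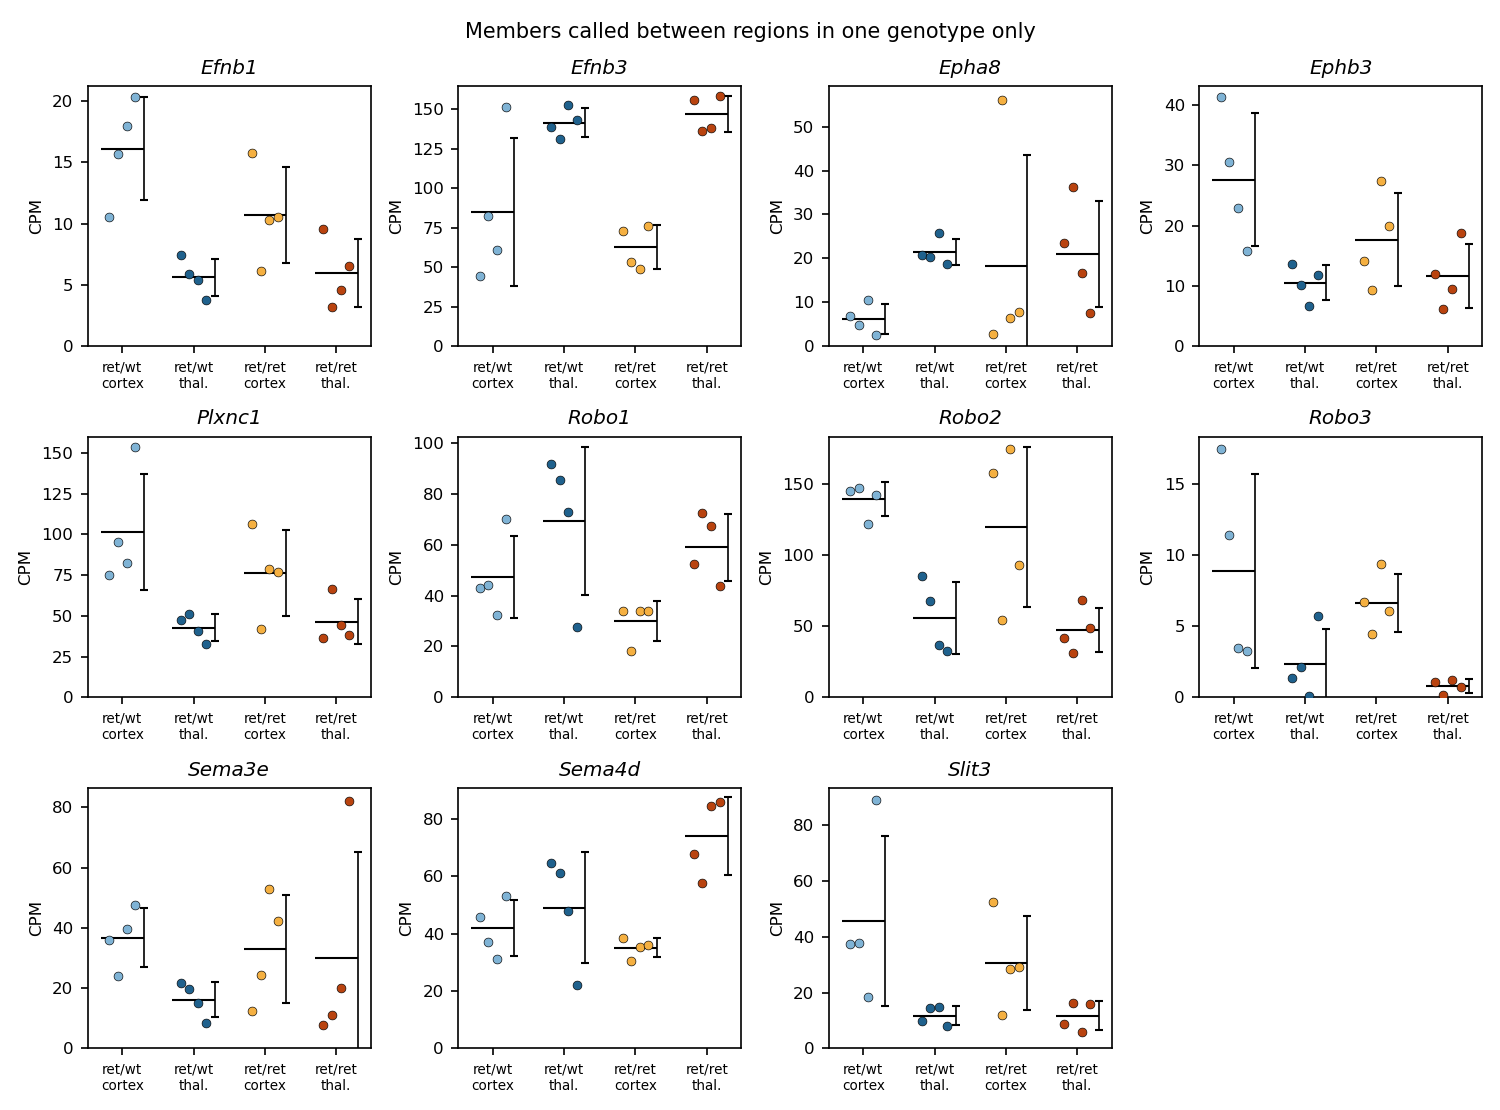
CPM of the 11 members called between regions in 1 genotype only; each point is 1 library, the horizontal line the group mean and the bar its SD over n = 4, cut at 0. Epha8 in ret/ret cortex (56.1 CPM) and Sema3e in ret/ret thalamus (82.1 CPM) each have 1 library far above the other 3.

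The remaining 38 of the 55 members were called in neither genotype. Epha4, a receptor that binds ephrins of both classes, was at 259.7 ± 55.1 CPM in the cortex and at 116 ± 71.5 in the thalamus of ret/wt animals (SD, n = 4 each). Its log2 fold changes were −1.16 in ret/wt (adjusted p = 0.0786) and −0.75 in ret/ret (adjusted p = 0.424) by edgeR (quasi-likelihood test, Benjamini-Hochberg adjustment). Sema5a, a ligand of Plxnb3, had values of 0.89 in ret/wt and 0.75 in ret/ret with adjusted p of 0.123 and 0.217 in the edgeR test. Plxnb2, a receptor of class 4 semaphorins, was uneven within groups: it was listed at 0.0 CPM in ret/ret cortex replicate 1 and at 58.5, 19.8 and 16.4 in the other 3. The other genes of these pathways came from lists by function, and their counts stand beside 5.44% of all genes called higher and 7.12% called lower in ret/wt thalamus, and 4.1% and 5.4% in ret/ret. Of 28 co-receptors and effectors of semaphorin signalling tested, 0 rose and 5 fell in ret/wt thalamus, and 0 rose and 3 fell in ret/ret. The neuropilins did not pass, with values of −0.35 for Nrp1 and −0.48 for Nrp2 in ret/wt and 0.16 and −0.53 in ret/ret. Mical2, an actin-oxidising enzyme of the family that acts downstream of plexins, had log2 fold changes of −2.69 in ret/wt and −2.62 in ret/ret.

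Of 18 Eph effectors and sheddases, 2 rose and 5 fell in ret/wt thalamus, and 0 rose and 5 fell in ret/ret. Kalrn, which acts in dendritic spines, had log2 fold changes of −3.60 in ret/wt and −3.23 in ret/ret. The values were −2.40 and −2.08 for Sipa1l1, −2.02 and −1.87 for the ephexin gene Ngef, and −1.76 in ret/ret for Chn1, an effector of Epha4 that also passed in ret/wt. Vav3 rose by 2.56 in ret/wt and did not pass in ret/ret. In ret/ret it was at 6.03, 21.5, 5.59 and 5.27 CPM in cortex and at 19.7, 93.4, 16.7 and 12.3 in thalamus. Of 19 genes listed for Slit and Robo signalling, effectors among them, 2 rose and 4 fell in ret/wt and 0 rose and 4 fell in ret/ret. Srgap1, a GTPase-activating protein that binds Robo1, and Lrig1 rose by 1.51 and 1.61 in ret/wt. Neither passed in ret/ret, where Srgap1 was at 17.6, 55.6, 12.7 and 17.8 CPM in cortex and at 50.3 to 74.7 in thalamus. Lrig1 was at 48.4, 161, 26.1 and 32.7 CPM in ret/ret cortex and at 136 to 211 in ret/ret thalamus. The high cortex value of both came from replicate 2, the library with cerebellar RNA. Of 16 netrins, RGMs and receptors, 3 rose and 4 fell in ret/wt and 1 rose and 4 fell in ret/ret. Rgma, a ligand of neogenin, rose by 0.77 and 0.83, and the netrin receptor Unc5a had values of −2.07 and −1.66.

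The next comparison asked what differed between ret/ret and ret/wt animals within a region. In thalamus, where the ret/ret pieces were calcifications, 0 of 56 members passed the adjusted threshold, as did 0% of the 14767 genes tested, in edgeR's quasi-likelihood test. No member had an unadjusted p under 0.05 (0 of 56), against 3.93% of all genes, and 0 members had groups that did not overlap, against 2.73%. DESeq2 also called 0 members. The log2 fold changes of the members, ret/ret over ret/wt, ran from −1.56 for Robo3 to 0.93 for Sema3e, with a median of −0.12 against −0.02 over all genes. The nearest to a difference was Sema4d, at 0.63 ± 0.30 with an unadjusted p of 0.0566 by the edgeR test across all genes. In the same libraries Trem2 and Tyrobp had values of 1.07 and 1.10, with unadjusted p of 0.00862 and 0.0184 in edgeR. Neither passed after adjustment. Both are microglial genes whose products are known to associate with plexin-A1 in dendritic cells. All 8 genes of the microglia list, which holds both, had positive values, with a median of 0.73. Of the 28 semaphorin co-receptors and effectors tested, which also include both, 13 were positive and 15 negative, with a median of −0.05.

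In cortex, which held no calcifications, 0 of 55 members passed the adjusted threshold, against 0.021% of all genes (0.014% higher and 0.007% lower), and DESeq2 called 0 as well. At an unadjusted p under 0.05 there were 5 members (9.09%), against 3.77% of all genes, and 3 members had groups that did not overlap, against 2.32%. The median of the members was −0.21 against 0.01 over all genes, and negative values were found in 7 of 7 ephrins, 3 of 3 Slits, 8 of 9 plexins, 3 of 4 Robos, 6 of 12 Eph receptors and 12 of 20 semaphorins. These signs rested in part on ret/wt cortex replicate 4, the library with the choroid plexus genes: without it 3 of 7 ephrins, 2 of 3 Slits and 6 of 9 plexins were negative. Without ret/ret cortex replicate 3, 5 of 9 plexins were negative. None of the 5 members below passed the adjusted test.

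Robo4, the Robo of endothelial cells, was measured at 6.20, 3.95, 3.78 and 7.17 CPM in ret/wt cortex and at 20.0, 12.6, 8.98 and 8.47 in ret/ret cortex, without overlap. Its log2 fold change was 1.26 ± 0.35 (unadjusted p = 0.00532, adjusted p = 0.898 by edgeR (quasi-likelihood test, Benjamini-Hochberg adjustment)). Ephb4, the receptor of Efnb2 known for venous endothelium, was at 6.44, 4.02, 3.25 and 3.96 CPM in ret/wt cortex and at 8.28, 7.24, 7.67 and 6.90 in ret/ret cortex. It too was higher in all 4 ret/ret libraries, with a value of 0.79 ± 0.27 (unadjusted p = 0.0172, adjusted p = 0.999 in edgeR). In thalamus the values were 0.29 ± 0.39 for Robo4 and 0.13 ± 0.44 for Ephb4. An endothelial list of 7 genes had 5 positive values in cortex and summed to 124 to 195 CPM in ret/wt and 161 to 368 CPM in ret/ret. In thalamus 7 of 7 were positive, and the sums were 190.0 to 216 CPM in ret/wt and 172 to 411 CPM in ret/ret. The median log2 fold change of the list was 0.67 in cortex and 0.54 in thalamus, and its part in the values of Robo4 and Ephb4 was not tested.

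The other 3 were lower in ret/ret cortex. Sema4b, a transmembrane semaphorin, was at 13.4, 11.4, 11.7 and 18.7 CPM in ret/wt and at 10.4, 9.46, 8.47 and 10.4 in ret/ret, without overlap, a difference of −0.50 ± 0.22 (unadjusted p = 0.0469 in edgeR's test across all genes). Plxna1 was at 168, 139, 159.6 and 167 CPM in ret/wt cortex and at 71.7, 85.7, 149 and 119 in ret/ret cortex, where replicate 3 lay in the control range. Its value was −0.56 ± 0.22 (unadjusted p = 0.0314 in the edgeR fit). Robo1 was at 42.9, 44.1, 32.2 and 70.1 CPM in ret/wt cortex, which overlapped the ret/ret values given above, a difference of −0.64 ± 0.28 (unadjusted p = 0.0467 in the edgeR fit). The adjusted p of all 3 was 0.999 by edgeR (quasi-likelihood test, Benjamini-Hochberg adjustment).

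**Figure D5:**
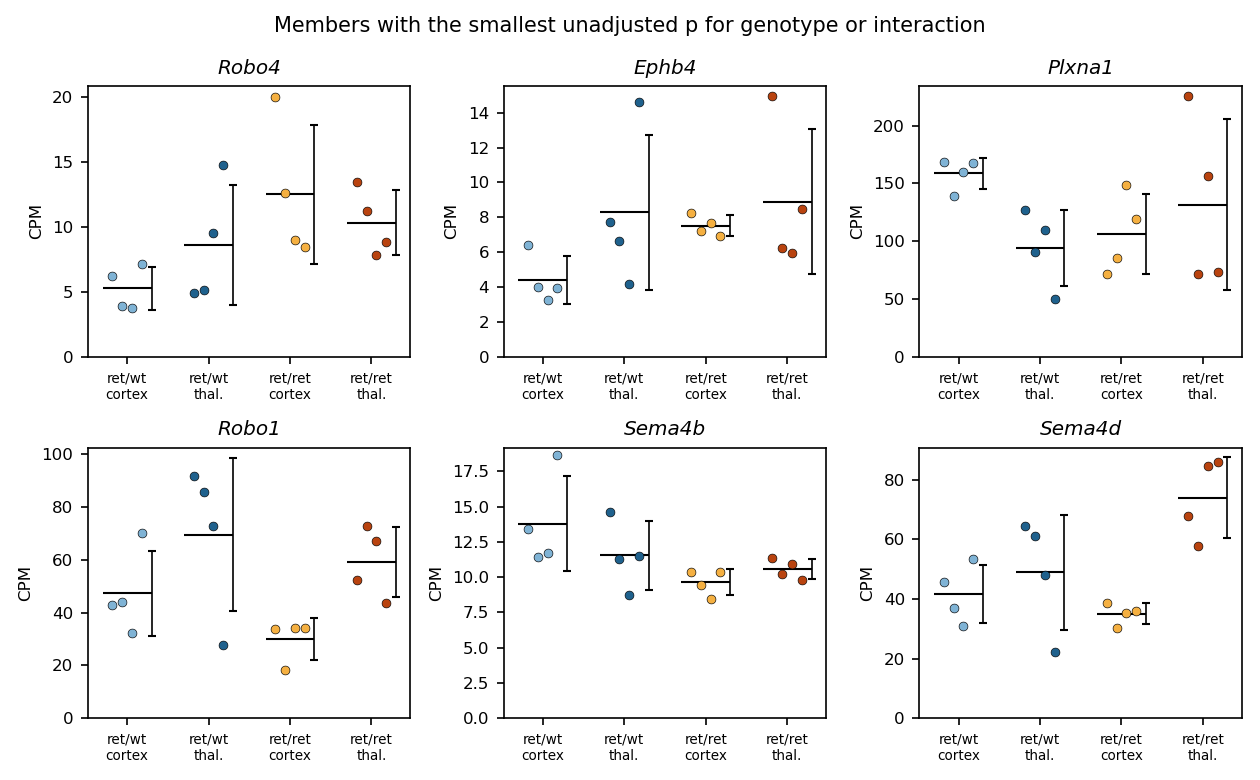
CPM of the 5 members with an unadjusted p under 0.05 between genotypes in cortex and of Sema4d; each point is 1 library, the horizontal line the group mean and the bar its SD over n = 4. Robo4 is higher in all 4 ret/ret cortex libraries (8.47 to 20.0 CPM) than in ret/wt cortex (3.78 to 7.17 CPM), and the thalamus groups overlap in every panel.

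Whether the difference between regions itself differed between genotypes was tested by the interaction of genotype and region over all 16 libraries. It called 0 of 56 members and 0% of all genes in edgeR's quasi-likelihood test, and DESeq2 called 0 members. At an unadjusted p under 0.05 there was 1 member, Sema4d, against 1.6% of all genes. Its interaction was 0.84 ± 0.38 on the log2 scale (unadjusted p = 0.0407, not called after Benjamini-Hochberg adjustment in edgeR). Plxna1 had an interaction of 1.06 ± 0.50 (unadjusted p = 0.0518 in the edgeR fit): thalamus was lower than cortex in 4 of 4 ret/wt animals and in 2 of 4 ret/ret animals. For the 11 members called between regions in 1 genotype alone, the calls therefore do not show that the genotypes differed.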

How the data were processed

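PolyA-selected, stranded RNA-seq libraries were made from cortex and thalamus of 8 mice, per the labels' protocols. The deposited values were expected counts per gene for 16 libraries. Per the submitters' processing notes, kallisto 0.44.0 and the build GRCm38.p6 were used; the annotation and the summary to genes are not given in the sources used here. All nonzero values (100.0%) were not whole numbers, so the deposited expected counts were rounded before fitting. Symbols, coordinates and merged exon lengths came from GENCODE M21, matched for 21581 of 21804 genes (99.0%), and promoters from RefSeq.

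Genes passed filterByExpr (minimum count 10, minimum total 15), and TMM factors and the quasi-likelihood test of edgeR 4.0.16 (R 4.3.3) were applied with Benjamini-Hochberg adjustment at 0.05 over all genes. Each comparison of 2 groups used its own 8 libraries and the interaction all 16. The main region and interaction tests had no term for the animal, although each animal gave both regions. A block for the animal was run only as an alternative. CPM were scaled over 16 libraries. Epha1 did not pass the filter in 3 of the comparisons (both region comparisons and genotype in cortex), so 55 members were tested there. Values were plotted with Python 3.11.15 and matplotlib 3.10.9.

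Members and lists were chosen with earlier results of these data known. Members were named with full values where they passed in both genotypes, and up to 6 with the smallest unadjusted p where few or none passed; in each family the highest level per length was named. Sema4g and Sema6d were added after their values were seen, as were Epha4, Sema5a and Plxnb2 among the members not called. Replicates are separate animals. Within a genotype, equal replicate numbers are the same animal per the labels. The residuals of its cortex and thalamus libraries correlated at −0.02 to 0.19 in ret/wt and −0.00 to 0.24 in ret/ret. The highest correlation with a thalamus library of another number was −0.04 to 0.14 in ret/wt and −0.00 to 0.15 in ret/ret. It exceeded the value for the same number in replicates 2 and 4 of each genotype and in ret/ret replicate 3. The pairing therefore rests on the labels. Between genotypes they are different animals. In simulated counts, 200 genes were given a log2 fold change of 2, and the edgeR test recovered 77.5% for the ret/wt region comparison (14442 genes) and 76.5% for genotype in thalamus (14767 genes); false genes were 4.91% and 4.38% of the calls.

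Alternatives were RLE scaling, library totals alone, DESeq2 1.42.0, limma-voom (limma 3.58.1), no filter, a threshold of 0.01, a block for the replicate number, leaving out each library, leaving out 2 animals, and 1 fit of all libraries. The 2 animals were ret/wt replicate 3 and ret/ret replicate 2, so each region comparison lost only 1 of them.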

Additional observations from a re-analysis of the deposited data

Results flagged for a closer look

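Within groups of 4 libraries, the gap of the highest or lowest value to its nearest neighbour was compared with the range of the group by Dixon's criterion. Of 84 groups examined, 4 exceeded it, and chance flags about 1 in 20 groups. Epha8 reached 56.1 CPM in replicate 2 of ret/ret cortex, where the other 3 libraries had 2.83 to 7.88, and that library also held cerebellar RNA. Robo1 was low in the same library, at 18.1 CPM against 33.8 to 34.1. Plxna2 was low in ret/wt thalamus replicate 4, at 49.9 CPM against 79.6 to 84.1. Sema3e was high in ret/ret thalamus replicate 4, at 82.1 CPM against 7.58 to 19.9, and this library decided the value of Sema3e between regions in ret/ret. That library also held the cerebellar gene Fat2 at 41.7 CPM.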

How the results depend on the processing

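The count of members called between regions was 13 in ret/wt and 10 in ret/ret. At an adjusted p of 0.01 the counts were 6 and 5. The share of all genes at that threshold is not given here, so these counts cannot be set against it. Leaving out 1 library gave 10 to 16 in ret/wt and 8 to 17 in ret/ret, while 8.01% to 12.2% and 4.19% to 13.4% of all genes were called. Leaving out the animal with cerebellar reads in cortex, 1 in each genotype, gave 11 and 20, against 9.88% and 17.4% of all genes. DESeq2 gave 19 and 14, against 16.4% and 15.6% of all genes (12.6% and 9.5% in edgeR). With the replicate block, counts were 13 and 10, against 10.3% and 8% of all genes. Ret/wt then lost Sema3e and Slit3 and gained Efna5 and Sema4g, and ret/ret lost Robo1 and gained Robo2. The genotype comparisons and the interaction gave 0 members in every setting run. In the genotype comparisons the block joined different animals of equal number, so its result has no bearing there. Of the values of single genes under alternatives, 592 kept direction and side of the threshold, 34 lost a call, 11 gained one and 10 changed sign. Epha8 in ret/ret changed sign without cortex replicate 1 (−0.14), thalamus replicate 2 (−0.15), cortex replicate 3 (−0.07) and cortex replicate 4 (−0.05), and was 1.90 without cortex replicate 2. Sema3e in ret/ret changed sign without thalamus replicates 1, 2 and 3 (0.19, 0.18 and 0.06), without cortex replicates 3 and 4 (0.22 and 0.01) and without replicate 2 in both regions (0.0375), and was −1.36 without thalamus replicate 4. The call of Ephb3 in ret/wt was lost without ret/wt replicate 3 in both regions (adjusted p = 0.0599 in edgeR), as were those of Sema3e (0.12) and Sema6a (0.1). The cause was not tested. With 4 animals a group, differences that were small against the spread between animals may have been missed, and the smallest detectable difference was not tested. The lowest value of Robo3 (0.665 counts) lay below the floor of 3 counts.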
